A study of Mus musculus with 34 samples.

Results

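The genes of 4 cytoplasmic intermediate filament proteins (Des, Vim, Nes and Synm) and of the 3 nuclear lamin genes (Lmna, Lmnb1 and Lmnb2) were followed in C2C12, an established mouse myoblast line, by multi-target chromatin integration labelling (mtChIL-seq). These 7 genes were chosen by name, of 21627 coding genes of the autosomes and the X chromosome. Their bins are the 293, of 2631630 bins of 1 kb in the genome, that overlap a gene span or the 10 kb on either side of it, and the bins of 1 gene together are called its window. In the method, a DNA-bearing probe is brought to the antibody on each target, Tn5 transposase inserts the probe's DNA into chromatin close by, and transcription from the inserted DNA amplifies the neighbouring genome linearly. A count therefore reports how often the target lay near a stretch of DNA, and no RNA was measured.

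The targets were H3K4me3, the histone methylation found at the starts of active genes; CTCF, a DNA-binding protein of insulators and loop anchors; H3K27ac, a histone mark of active enhancers and starts; and Pol2S2P, the elongating form of RNA polymerase II, which carries a phosphate on serine 2 of its tail repeat. H3K4me3 and CTCF were stained together in the same cells, at 10000 and at 1000 cells. H3K27ac and Pol2S2P were stained together at 1000 and at 100 cells. CTCF was also stained alone at 10000 cells, and Pol2S2P alone at 1000 cells. All groups are untreated C2C12 cells as far as the labels say. Each of the 8 groups of dual staining held 3 libraries and each of the 2 groups of single staining held 2, which makes 28 libraries in all. The labels do not say that replicates came from separate cultures, so a p-value here weighs a difference only against the spread of these libraries, and that spread may be technical.

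Library totals ran from 719766 to 6653298 counts, with the lowest in H3K4me3 at 1000 cells and the highest in CTCF stained alone. No pair of libraries held identical counts. A level is given below as times the genome mean, that is, the counts per bin of a region divided by the counts per bin over all bins of that library. Of 7 myoblast markers, 4 had a window level above 1 for H3K4me3 at 10000 cells, led by Myf5 at 11.6, while Myod1 stood at 0.551. All 5 neuronal markers lay between 0.331 and 0.606 in those libraries. Of 6 markers of differentiated muscle 4 were above 1, with a median of 1.51 against 1.26 for the myoblast markers, and so were 2 of 5 blood, 3 of 4 liver and 2 of 4 epithelial markers. The highest levels in these lists were 2.67 for muscle and 2.06 for epithelium. These are chromatin levels at marker genes, so a low value does not report an absent RNA.

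Intermediate filament proteins form rope-like polymers that give cells mechanical strength. Vimentin is the type III filament protein of mesenchymal cells and myoblasts, and desmin is the type III protein that takes over in muscle, where it ties myofibrils to each other and to the membrane. Nestin and synemin do not build filaments alone and join vimentin or desmin as partners. Lamins A and C (both from Lmna), B1 and B2 form the meshwork under the inner nuclear membrane, and mutations of DES and LMNA cause muscle disease.

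The promoter sequences below are shown because they lie at the starts where the levels of H3K4me3 and CTCF are compared. They are the 250 bases before the first transcribed base, read 5′ to 3′ on the strand of the gene, from RefSeq (GRCm38.p6). Capitals mark matches on either strand to short motifs. The motifs searched were GGGCGG, known as the GC box, and CCAAT, known by its own letters. The others were TATAAA, the core promoter element of that name, and CAGCTG, an E-box of the kind bound by myogenic factors. The last was AGGGGGC, which is part of the known CTCF consensus. Vim lies at chr2:13574061-13574310 on the plus strand, Des at chr1:75360042-75360291 on the plus strand, Synm at chr7:67759743-67759992 on the minus strand, and the first start of Lmna at chr3:88503353-88503602 on the minus strand.
Vim: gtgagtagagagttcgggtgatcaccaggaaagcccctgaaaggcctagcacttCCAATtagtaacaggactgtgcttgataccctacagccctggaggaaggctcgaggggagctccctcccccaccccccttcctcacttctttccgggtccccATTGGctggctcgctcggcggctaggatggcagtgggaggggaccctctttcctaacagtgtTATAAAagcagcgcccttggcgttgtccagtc
Des: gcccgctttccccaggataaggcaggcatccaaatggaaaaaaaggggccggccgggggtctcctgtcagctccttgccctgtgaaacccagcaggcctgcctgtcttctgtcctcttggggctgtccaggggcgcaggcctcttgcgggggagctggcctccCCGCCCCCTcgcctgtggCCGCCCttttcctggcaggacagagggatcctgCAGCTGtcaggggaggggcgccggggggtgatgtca
Synm: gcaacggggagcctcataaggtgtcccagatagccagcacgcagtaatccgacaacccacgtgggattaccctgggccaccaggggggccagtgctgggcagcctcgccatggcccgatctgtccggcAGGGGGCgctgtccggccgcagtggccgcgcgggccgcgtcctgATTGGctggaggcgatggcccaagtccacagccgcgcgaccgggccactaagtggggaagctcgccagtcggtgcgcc
Lmna: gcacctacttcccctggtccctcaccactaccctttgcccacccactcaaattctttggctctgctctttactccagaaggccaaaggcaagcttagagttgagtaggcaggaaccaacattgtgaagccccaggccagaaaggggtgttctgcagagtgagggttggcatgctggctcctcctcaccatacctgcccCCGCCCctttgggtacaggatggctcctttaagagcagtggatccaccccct

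Of the 7 genes, 6 had a start in the RefSeq promoter table, and Lmnb1 had none there. The start of Lmnb1 used below is the 5′ edge of its gene span. Vim held CCAAT 196 to 192 and 94 to 90 bases before its start and TATAAA 32 to 27 bases before it. Des held GGGCGG 87 to 82 and 69 to 64 bases before the start and CAGCTG at 36 to 31; its AGGGGGC at 85 to 79 overlaps the first GGGCGG. Synm held CCAAT at 78 to 74 and AGGGGGC at 122 to 116. Lmna held GGGCGG at 52 to 47. Over 32619 mouse promoters of the same length, GGGCGG was in 33.0%, CCAAT in 34.0%, TATAAA in 12.4%, CAGCTG in 13.1% and AGGGGGC in 9.49%. These matches describe the letters only.

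H3K4me3 was highest at the starts of Vim, Lmna, Lmnb1 and Nes, low at Des and Lmnb2, and lowest at Synm. At the start of Vim (the 3 bins within 1 kb of it) the 3 libraries of 10000 cells gave 93.5, 80.9 and 84.7 times the genome mean. Those of Lmna, counted at the first of its 2 listed starts, gave 63.8, 62.2 and 54.5. The gene span of Lmna (3:88481148-88509932, minus strand) also reaches upstream of that start, which lies at 3:88503352. All 3 Vim libraries were above all 3 of Lmna. Lmnb1 gave 47.7, 36.0 and 53.3 and Nes gave 35.9, 37.8 and 43.6, so these neighbours in the order overlapped. The next 2 were Lmnb2, at 14.9, 8.44 and 13.3, and Des, at 9.90, 11.6 and 13.9, which overlapped each other and lay below all libraries of Nes. The Synm start gave 1.86, 1.78 and 3.03, from 3 to 5 counts per library, all above the genome mean and below every library of Des. At 1000 cells the Vim start gave 89.0, 83.2 and 73.3 and that of Des gave 6.09, 6.66 and 9.16.

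The single bins with the most H3K4me3 were centred 1 to 1.5 kb inside the gene for Vim, Nes, Lmna and Lmnb1. For Vim it was the bin centred 1.13 kb downstream of the start, at 130, 120 and 131 times the genome mean at 10000 cells. The same bin held 17.0, 20.6 and 21.4 in the CTCF libraries of the same cells. The top bin of Lmna, centred 1.21 kb inside, held 102, 98.7 and 72.6, and that of Lmnb1, 1.46 kb inside, held 91.0, 70.7 and 87.2. That of Des covered the start itself and held 16.7, 16.0 and 25.4.

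**Figure D1:**
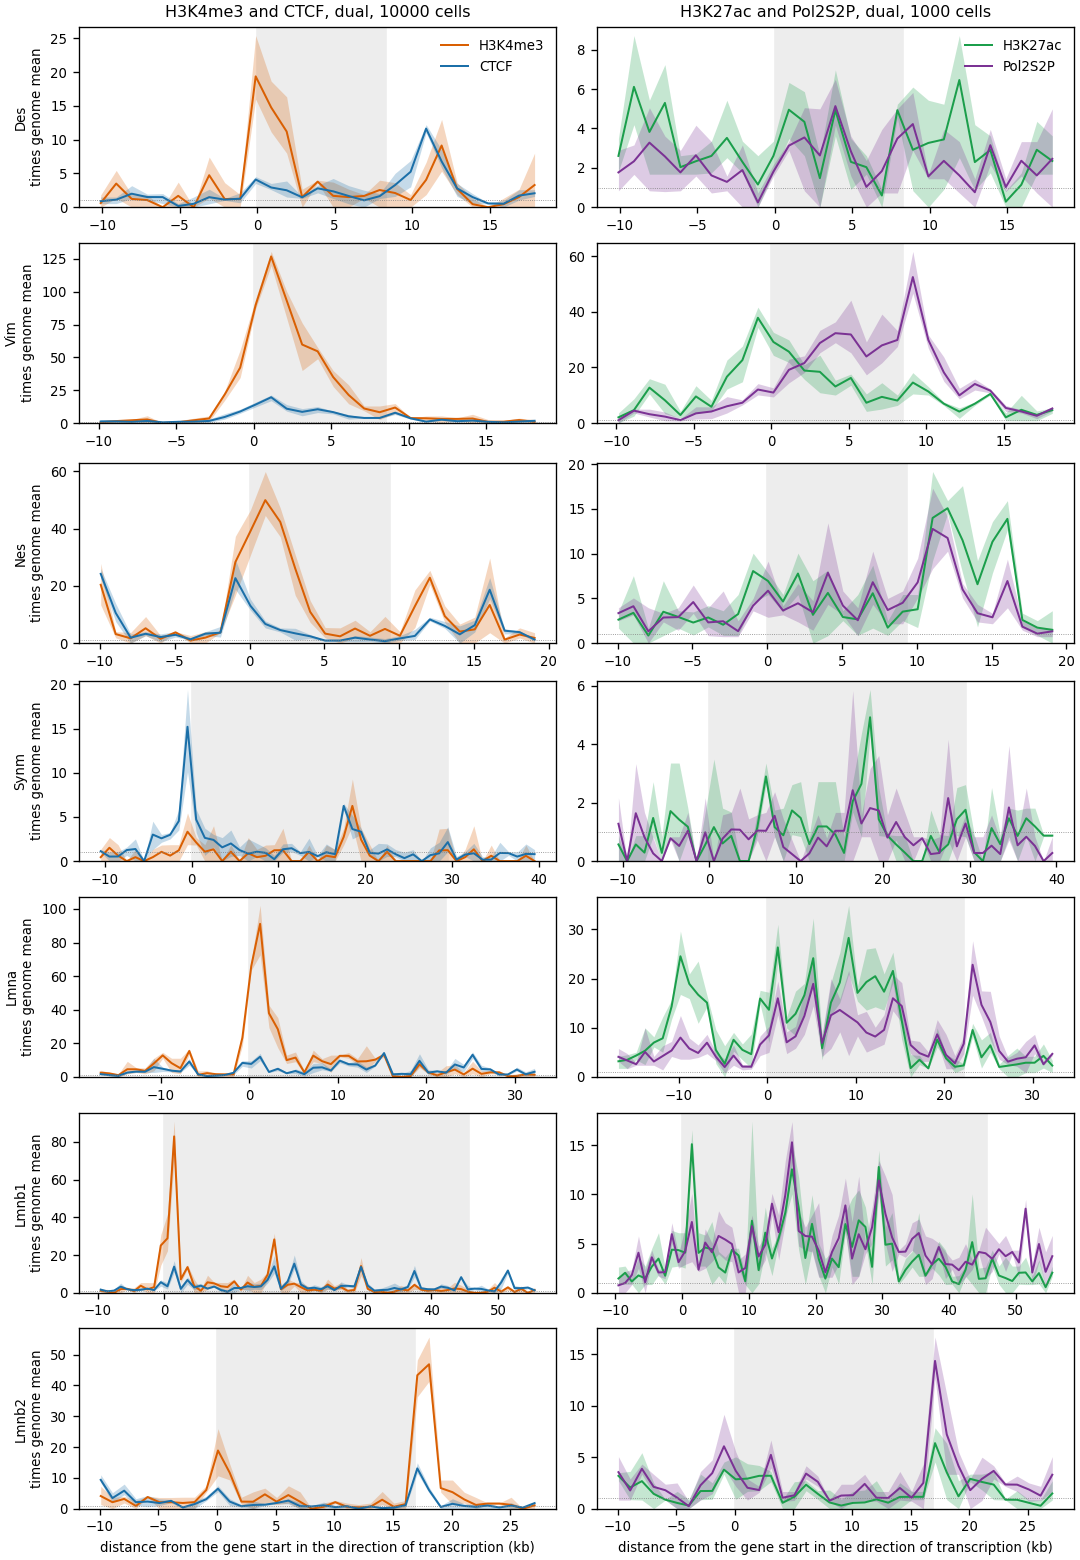
Levels along the 7 genes, in times the genome mean, against distance from the start in kb, for H3K4me3 and CTCF stained together at 10000 cells (left) and for H3K27ac and Pol2S2P stained together at 1000 cells (right). Lines are means of 3 libraries and bands run from the lowest to the highest library. Grey runs from the start to the 3′ end, which for Lmna leaves out the part of its span upstream of the first listed start. H3K4me3 peaks just inside the starts of Vim, Lmna, Lmnb1 and Nes, and Pol2S2P at Vim peaks past the 3′ end.

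Across whole windows, Vim led for H3K4me3 and Pol2S2P in every group mean, and the mean of Synm lay below the genome mean for every target but CTCF. For H3K4me3 at 10000 cells, the window of Vim gave 22.2, 19.3 and 21.9 times the genome mean, which is above 99.9% of the windows of the 21627 genes. Nes followed with a mean of 11.1 ± 0.157 (SD, n = 3) and Lmna with 9.63 ± 0.861, and neither overlapped its neighbour. Lmnb2 (5.22 ± 0.572) and Lmnb1 (5.01 ± 0.327) overlapped. Des had 3.38 ± 0.409 and Synm 0.790 ± 0.0452, against a median of 1.59 over all genes. Synm was below the genome mean in all 3 of these libraries.

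For H3K27ac at 1000 cells the order of the windows was Vim (10.7, 11.3 and 13.0), Lmna (9.37, 10.4 and 10.5), Nes (5.28 ± 0.238, SD, n = 3), Lmnb1 (3.77 ± 0.451), Des (3.03 ± 0.518), Lmnb2 (1.73 ± 0.290) and Synm (0.991 ± 0.0587). Only Lmnb1 and Des, among neighbours, overlapped. At 100 cells the first places were exchanged, with Lmna at 10.6, 10.7 and 11.7 and Vim at 9.13, 10.3 and 12.3, which overlapped. In the Pol2S2P libraries of 1000 cells Vim again led, at 13.1, 15.9 and 15.0, above 99.99% of all windows. Lmna followed at 7.10, 8.15 and 7.32, then Lmnb1 (4.65 ± 0.146) and Nes (4.37 ± 0.455), which overlapped, then Lmnb2 (2.79 ± 0.0601), Des (2.27 ± 0.180) and Synm (0.791 ± 0.152). CTCF spread less between the genes: at 10000 cells in dual staining the windows ran from 1.68 ± 0.175 for Synm to 5.59 ± 0.644 for Nes, with Lmna (4.50 ± 0.131) and Vim (4.49 ± 0.249) overlapping.

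**Figure D2:**
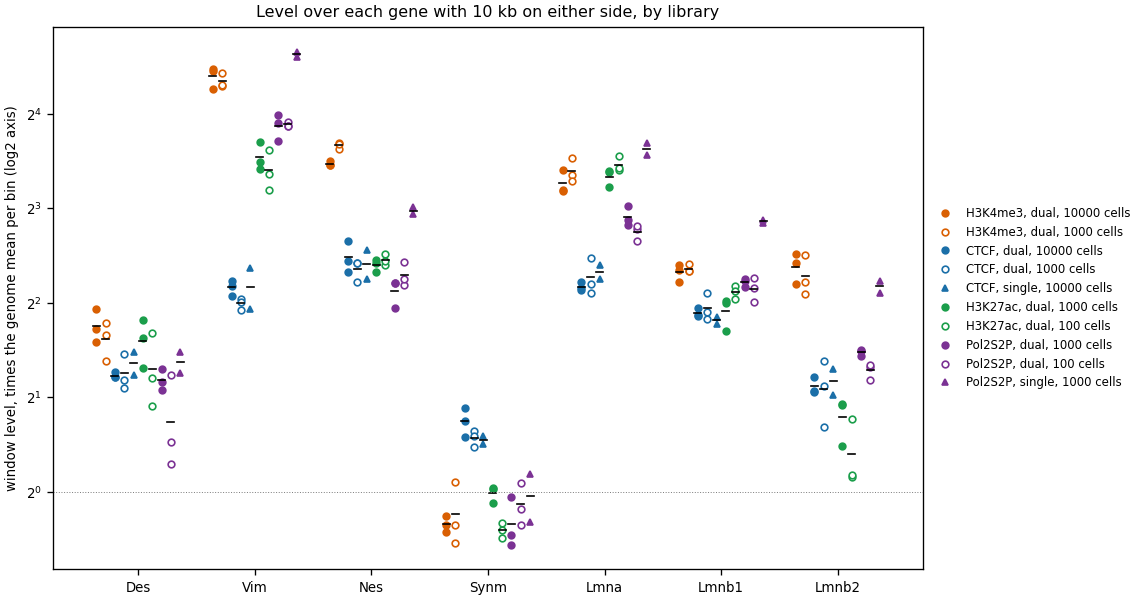
Window level of each gene in each of the 28 libraries, in times the genome mean on a log2 axis, by target. Circles are dual staining (filled for the larger number of cells), triangles single staining, short bars the group means and the dotted line the genome mean; Vim is highest for H3K4me3 and Pol2S2P, and Synm has the lowest group mean in all 10 groups.

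The window of Lmnb2 is shared with other genes. Bins of other coding genes (11 of its 38) held 56.5% ± 5.70 (SD, n = 3) of its H3K4me3 counts at 10000 cells. Its top H3K4me3 bins lay 17.1 and 18.1 kb downstream of the first start, over Timm13, and the farther of these held 55.7, 41.3 and 43.6 times the genome mean. Without those bins the window gave 3.16, 2.67 and 3.77 for H3K4me3 and 2.01, 2.01 and 2.11 for CTCF at 10000 cells, so the groups still did not overlap. Window differences of Lmnb2 given below include its bins of other coding genes, and no fit left out just those bins. Vim and Lmna have no bin of another coding gene in their windows.

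H3K4me3 against CTCF in the same cells asks how the mark of active starts and the insulator protein divide over these genes. At 10000 cells 6 of 7 windows had more H3K4me3 than CTCF and Synm had less. Vim had 232 ± 17.5 counts per 1000000 (CPM) for H3K4me3 and 49.4 ± 2.75 for CTCF (SD, n = 3 each), a log2 difference of 2.22 ± 0.07 (SE) with an adjusted p of 2.8e-93 in edgeR's quasi-likelihood test with Benjamini-Hochberg adjustment. Lmnb2 followed with 1.26 ± 0.11, Lmna with 1.09 ± 0.07, Nes with 0.99 ± 0.08, Des with 0.52 ± 0.14 and Lmnb1 with 0.42 ± 0.08. The place of Lmnb2 in this order includes the bins of other coding genes, which held most of its H3K4me3 counts. Synm had 15.3 ± 0.875 CPM for H3K4me3 and 32.6 ± 3.39 for CTCF, a log2 difference of -1.09 ± 0.17 (edgeR adjusted p = 1.6e-09), on 74 counts of H3K4me3 summed over the 3 libraries. The 3 libraries of each target did not overlap at any of the 7 genes, while the share of all windows without overlap was not counted. Of all 19348 windows tested, 46.5% were called higher and 32.8% lower, so being called is the common outcome here.

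At 1000 cells 5 windows were higher and 1 was lower, against 43.2% higher and 27.6% lower of 18462 windows tested. Vim had 224 ± 12.1 CPM for H3K4me3 and 43.9 ± 1.74 for CTCF, a log2 difference of 2.36 ± 0.11. Nes had 1.30 ± 0.11, Lmnb2 1.18 ± 0.16, Lmna 1.13 ± 0.10, Lmnb1 0.43 ± 0.11 and Synm -0.85 ± 0.24. Des gave 0.36 ± 0.20 (edgeR adjusted p = 0.104) and its libraries overlapped between the targets. The call depends on how libraries are scaled, since the median log2 difference over all windows moved from 0.15 to -0.11 at 10000 cells, and from 0.17 to -0.08 at 1000 cells, when TMM factors (which align the bulk of the windows) replaced the plain library totals. With TMM, calls among all windows were 48.4% higher in place of 58.6% at 10000 cells, and 49.5% in place of 61% at 1000 cells. Under TMM and under DESeq2 the call on Des at 10000 cells (0.26 and 0.32) and that on Lmnb1 at 1000 cells (0.18 and 0.20) were lost, while Vim, Nes, Lmna, Lmnb2 and Synm kept theirs at both cell numbers.

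By single bins, 52 of the 293 had enough counts to test at 10000 cells, and 35 of them were higher in H3K4me3 and 5 lower. Over the genome 53.9% of 44023 tested bins were higher and 29.4% lower. At 1000 cells 24 bins could be tested, of which 19 were higher and 0 lower, against 71.9% higher and 19.5% lower of 16589. The filter keeps bins that are high in at least 1 of the targets, so these counts describe the bins that passed and not the genes as a whole. Vim had 10 of its 11 tested bins higher at 10000 cells, Lmna 9 of 16, Nes 5 of 8, Lmnb1 5 of 9, Lmnb2 4 of 4 and Des 2 of 3. The Lmnb2 bins at 10:80899671-80900670 and 10:80900671-80901670, among these, overlap Timm13. The largest difference at 10000 cells was in the Lmna bin centred 2.21 kb inside its first start, at 3.60 ± 0.33 (edgeR adjusted p = 1.5e-18), and at 1000 cells in the Nes bin 2.05 kb inside, at 3.80 ± 0.39. With TMM the split at 10000 cells was 25 higher and 10 lower among these bins, and with DESeq2 17 and 10; over all bins the calls were 64.7% higher as reported, 50.1% with TMM and 41.6% with DESeq2. At 1000 cells TMM gave 11 higher and 5 lower and DESeq2 5 and 5, and over all bins the share of higher calls went from 78.7% to 43.8% and 21.5%.

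**Figure D3:**
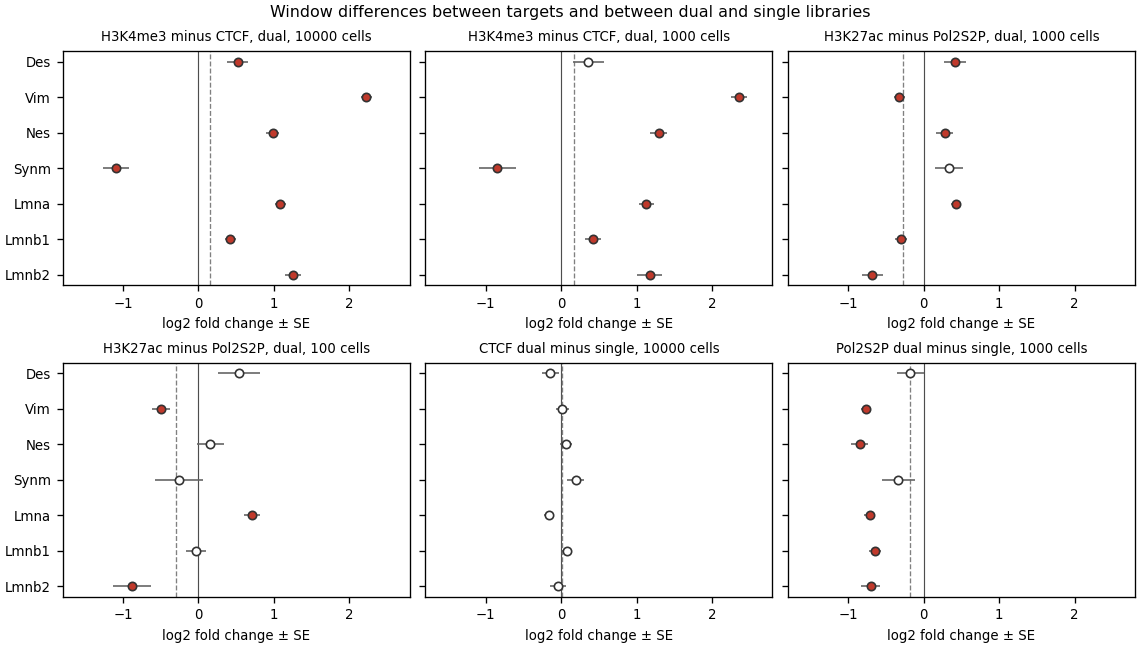
Log2 differences between groups over the 7 gene windows for 6 comparisons, with bars of 1 SE. Filled red points have an edgeR adjusted p under 0.05, and the dashed line is the median of all windows in that comparison; Vim is highest in both comparisons of H3K4me3 with CTCF, and Synm is below 0 in both.

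CTCF itself stood at 5 or more times the genome mean in every one of the 8 CTCF libraries in 27 of the 293 bins. Lmna held 8 of them, Vim, Nes and Lmnb1 5 each, Lmnb2 2, and Des and Synm 1 each. These bins were chosen on their CTCF levels, which are given as a description. The share of all bins of the genome that pass the same rule was not counted. The strongest was centred at -9.95 kb from the start of Nes (3:87960646-87961645), at 26.1, 22.6 and 23.9 times the genome mean in dual staining and 27.5 and 32.4 in single staining at 10000 cells. The H3K4me3 libraries of the same cells held 27.9, 13.3 and 20.0 there, so the targets overlapped with library totals. The bin was not called in that fit (-0.30 ± 0.25), but it was called lower in H3K4me3 with TMM (-1.27) and with DESeq2 (-1.49). At Synm the only such bin covered the start (7:67759726-67760725), with CTCF at 10.1, 16.1 and 19.4 in dual staining, 12.7, 14.5 and 12.9 at 1000 cells and 11.7 and 15.4 in single staining. H3K4me3 held 1.86, 2.67 and 5.45 in that bin, from 1 to 3 counts per library. The AGGGGGC printed in capitals for Synm lies in this bin. The same letters before the Des start lie where CTCF was lowest of the 7 starts, at 3.01, 2.68 and 2.59 times the genome mean over the 3 start bins at 10000 cells, and they also occur 8 to 2 bases before the other listed start of Lmna.

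The 5 bins with less H3K4me3 than CTCF at 10000 cells lay at Des, Synm, Lmna and Lmnb1 (2 bins). The Des bin was centred 2.62 kb past the 3′ end (1:75370696-75371695) and held 12.2, 11.0 and 11.6 of CTCF against 1.86, 6.67 and 3.63 of H3K4me3, a log2 difference of -1.40 ± 0.47. The Synm start bin gave -2.16 ± 0.49, the most negative of the 5. A Lmnb1 bin 19.5 kb inside the gene, with CTCF at 12.8, 13.6 and 20.1 and H3K4me3 at 5.57, 5.33 and 3.63, gave -1.61 ± 0.43. All 5 remained lower with TMM and with DESeq2. By contrast the Vim bins with CTCF were centred from -0.87 to 4.13 kb relative to the start, where H3K4me3 was also at its highest.

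**Figure D4:**
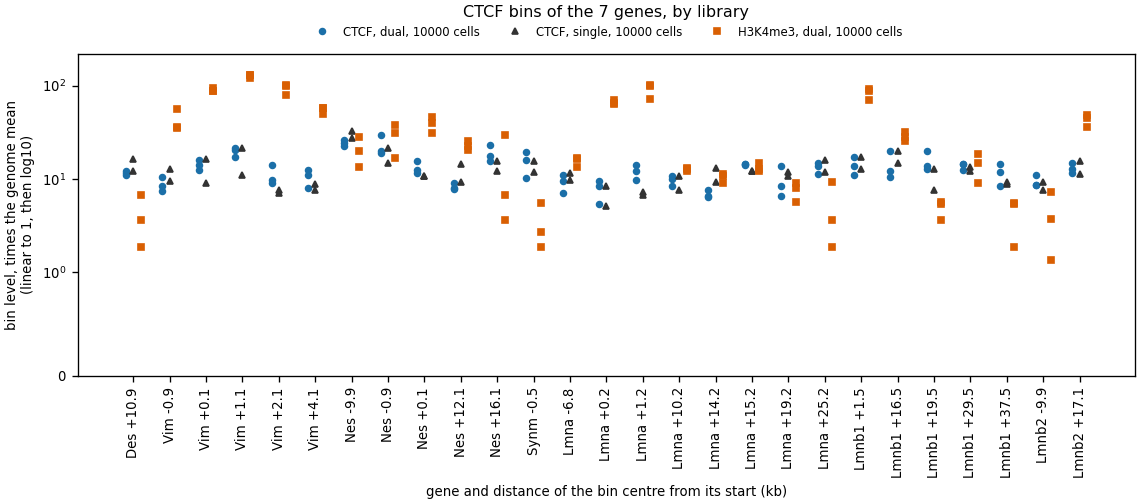
Levels in the 27 bins with CTCF at 5 or more times the genome mean in every CTCF library, in times the genome mean (linear near 0, logarithmic above), for CTCF in dual and in single staining and H3K4me3 in dual staining, all at 10000 cells. Each point is a library; every CTCF point is at 5 or above, as the choice of bins requires, and H3K4me3 runs from a few times the genome mean at Des and Synm to over 100 at Vim.

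CTCF stained alone asks whether the second antibody changes the CTCF signal. No difference was called at these genes: 0 of 7 windows passed, against 1.32% of 20657, and 0 of 65 tested bins, against 0.0956% of 82620. Window differences (dual minus single) ran from -0.16 ± 0.06 for Lmna to 0.19 ± 0.11 for Synm on the log2 scale. Lmna had 85.5 ± 2.48 CPM in dual (n = 3) and 95.4 ± 6.89 in single staining (n = 2), with libraries that did not overlap. Its edgeR p was 0.0119 unadjusted and 0.216 adjusted. The libraries of Lmnb1 did not overlap either, in the other direction (0.08 ± 0.06). The share of all windows without overlap was not counted in this comparison. At an unadjusted p under 0.05 edgeR had 2551 windows of the genome; DESeq2 called 0 of the 65 bins and 0 of the 3 windows to which it gave an adjusted p. Over all bins edgeR had 7308 at an unadjusted p under 0.05.

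H3K27ac against Pol2S2P in the same cells asks where the mark of active regulatory DNA and the elongating polymerase part. The clearest separation lay along Vim. At its start H3K27ac stood at 26.8, 31.1 and 34.7 times the genome mean at 1000 cells and Pol2S2P at 11.3, 15.0 and 15.8. At its 3′ end (the bins within 1 kb of it) H3K27ac stood at 10.1, 9.01 and 13.0 and Pol2S2P at 33.2, 37.8 and 39.3. With library totals the order of the targets thus reversed between the ends of the gene, with no overlap of libraries at either end. The excess of H3K27ac towards the start depended on that scaling, as the bin calls given next show.

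The Vim bin with the most Pol2S2P was centred 9.13 kb from the start, 0.62 kb past the 3′ end (2:13582946-13583945). It held 49.1, 46.6 and 61.7 times the genome mean in the Pol2S2P libraries and 15.1, 10.5 and 18.1 in those of H3K27ac, a log2 difference of -1.85 ± 0.23 (edgeR adjusted p = 2.7e-06). At 100 cells the same bin held 66.6, 51.8 and 44.0 for Pol2S2P and the difference was -2.09 ± 0.36. The top H3K27ac bin was centred at -0.87 kb from the start, with 34.4, 37.5 and 41.7 against 10.1, 14.2 and 11.9 for Pol2S2P, a difference of 1.65 ± 0.24. Of the 19 Vim bins tested at 1000 cells, 5 were higher in H3K27ac, centred from -7.87 kb to the start, and 11 were lower, running from inside the gene to beyond its 3′ end. The largest of each kind were 2.00 ± 0.43 at -7.87 kb and -1.86 ± 0.28 at 8.13 kb from the start. With TMM 13 Vim bins were lower and 1 higher, and with DESeq2 12 lower and 0 higher, so the lower calls past the start did not depend on the scaling and 4 or all 5 of the higher calls did.

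Past the 3′ end of Lmna, too, Pol2S2P exceeded H3K27ac. The bin 1.01 kb past the 3′ end, which had the most Pol2S2P, held 16.6, 24.2 and 27.7 of it and 10.9, 9.59 and 8.15 of H3K27ac, a difference of -1.23 ± 0.30, and the next bin downstream gave -1.82 ± 0.44. Its top H3K27ac bin, 9.21 kb inside the first start and just upstream of the other listed start, held 21.0, 34.9 and 29.0 against 4.33, 21.7 and 11.1 for Pol2S2P, which overlapped although the bin was called (1.22 ± 0.34). Of 24 Lmna bins tested, 11 were higher and 2 lower; with TMM and with DESeq2 these became 0 higher and 4 lower. In all, 18 of 52 tested bins of the 7 genes were higher and 14 lower at 1000 cells, against 55.9% higher and 9.59% lower of 18663, and with TMM 1 was higher and 20 lower. At 100 cells 2 of 10 were higher and 4 lower, all in Vim and Lmna, against 70.8% and 6.55% of 1772; with TMM and with DESeq2 0 were higher and 6, all of Vim, were lower. Over all bins the calls at 1000 cells were 85.4% higher as reported, 34.9% with TMM and 19.8% with DESeq2, and at 100 cells 91.5%, 21.5% and 0.476%.

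Summed over windows at 1000 cells, Lmna, Des and Nes had more H3K27ac and Lmnb2, Vim and Lmnb1 more Pol2S2P. Lmna had 192 ± 11.9 CPM for H3K27ac and 143 ± 10.4 for Pol2S2P, a log2 difference of 0.43 ± 0.07 (edgeR adjusted p = 3.2e-09). Des gave 0.42 ± 0.15 and Nes 0.28 ± 0.11, while Lmnb2 gave -0.68 ± 0.14, Vim -0.33 ± 0.07 and Lmnb1 -0.30 ± 0.08. Synm gave 0.33 ± 0.19 (edgeR adjusted p = 0.133) with overlapping libraries. These 3 higher and 3 lower calls stand against 11.5% higher and 41.1% lower of 19524 windows. At 100 cells Lmna was higher (0.71 ± 0.11, from 209 ± 11.7 and 128 ± 7.48 CPM), Lmnb2 (-0.88 ± 0.25) and Vim (-0.49 ± 0.12) were lower, and the other 4 were not called, against 8.69% higher and 29.2% lower of 17365.

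The lower calls of whole windows depended on the scaling. The median log2 difference over all windows was -0.28 at 1000 cells and -0.30 at 100 cells with library totals, and 0.01 and -0.01 with TMM. With TMM and DESeq2 at 1000 cells, Vim (-0.04 and -0.05) and Lmnb1 (-0.01 and -0.03) were no longer called, Lmnb2 was kept by TMM (-0.39) and lost by DESeq2 (-0.41), and Synm was called higher (0.62 and 0.61). At 100 cells Vim (-0.20 with both) and Lmnb2 (-0.58 and -0.59) lost their calls with TMM and with DESeq2, Lmna kept its own (1.01 and 1.00), and TMM alone called Des (0.84) and Nes (0.46) higher. Among all windows the share of higher calls rose from 21.9% to 51.9% with TMM at 1000 cells and from 22.9% to 56.1% at 100 cells. The call on Des was lost without H3K27ac replicate 2 (0.29) or Pol2S2P replicate 1 (0.36), and that on Nes without H3K27ac replicate 1 (0.26) or 2 (0.25) or Pol2S2P replicate 1 (0.19). Over the gene span alone, without flanks, Nes gave -0.07 ± 0.19. The H3K27ac libraries of 100 cells held only 55 counts in the window of Synm and 72 in that of Lmnb2, all 3 together.

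Pol2S2P stained together with H3K27ac was lower at 5 of the 7 windows than Pol2S2P stained alone at 1000 cells. Vim had 161 ± 16.0 CPM in dual (n = 3) and 273 ± 7.38 in single staining (n = 2), a log2 difference of -0.76 ± 0.07 (edgeR adjusted p = 2.0e-25). Nes gave -0.85 ± 0.11, Lmna -0.72 ± 0.07, Lmnb2 -0.70 ± 0.13 and Lmnb1 -0.65 ± 0.08, each without overlap of libraries. Des (-0.18 ± 0.18, edgeR adjusted p = 0.412) and Synm (-0.34 ± 0.22, edgeR adjusted p = 0.188) were not called and their libraries overlapped. Lower calls made up 37.7% of 19702 windows, while the share of all windows without overlap was not counted. All 5 calls held with TMM, where they ran from -0.46 for Lmnb1 to -0.66 for Nes, and with DESeq2, although the share of higher calls among all windows went from 24.3% to 49.1% with TMM.

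By bins, 32 of 80 tested were lower and 0 higher, against 27% lower of 36611; with TMM 0 were lower and 1 higher, and DESeq2 called none, so the bins gave no call that held under every scaling. The lower bins were 12 of 17 at Vim, 9 of 31 at Lmna, 6 of 18 at Lmnb1, 4 of 11 at Nes and 1 of 3 at Lmnb2. Over all bins the share of higher calls was 2.86% as reported and 65.2% with TMM, and the median log2 difference was -0.71 and 0.06. The count also fell to 13 without single-staining replicate 1 and to 18 without replicate 2. The lowest value was -2.26 ± 0.75 in a Lmnb1 bin past the 3′ end (18:56761771-56762770, over Marchf3), from 8 counts in dual and 23 in single staining. At Vim, single staining gave 37.5 and 32.0 times the genome mean at the start and 62.4 and 56.1 at the 3′ end, and its top bin was the same bin past the 3′ end, at 91.0 and 84.2. The start held 14.5% ± 1.24 of the Vim counts in single staining (SD, n = 2) and 9.88% ± 0.995 in dual staining (SD, n = 3), and the bins downstream of the gene 27.3% ± 2.01 and 36.4% ± 3.43; these shares were not tested.

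**Figure D5:**
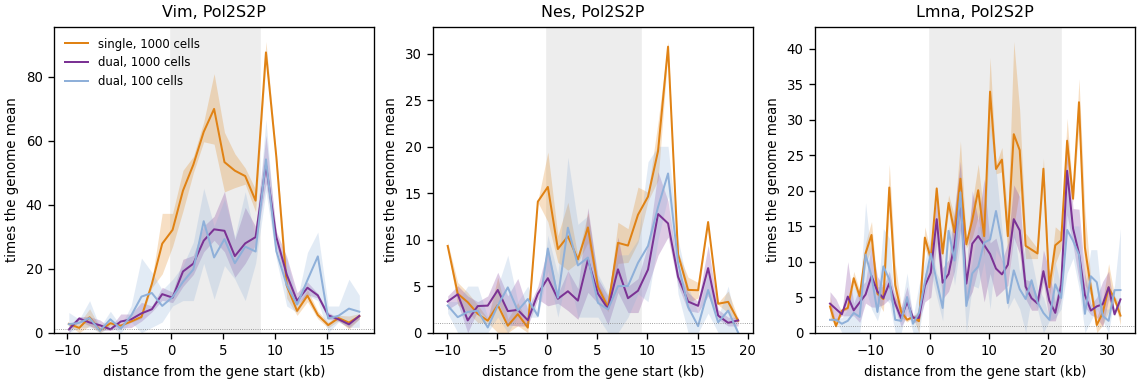
Pol2S2P levels along Vim, Nes and Lmna, in times the genome mean, against distance from the start in kb, in single staining at 1000 cells and in dual staining at 1000 and 100 cells. Lines are group means and bands run from the lowest to the highest library; at Vim all 3 groups rise towards the 3′ end, and single staining lies above dual staining.

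Levels of the same target were then compared between numbers of cells, and no difference was called at these genes. Of the 7 windows 0 passed between 10000 and 1000 cells for H3K4me3 (2.55% of 17072 did) or CTCF (0.255% of 19983), and 0 between 1000 and 100 cells for H3K27ac (0% of 18506) or Pol2S2P (0.0105% of 19017), by edgeR. At an unadjusted p under 0.05 edgeR had 2734, 2203, 1311 and 1360 windows of the genome in these comparisons, and DESeq2 called 14, 1, 0 and 1. The difference farthest from 0 was 0.41 ± 0.22 for Des in Pol2S2P (edgeR adjusted p = 0.731), from 2.12, 2.47 and 2.24 times the genome mean at 1000 cells and 2.35, 1.44 and 1.23 at 100 cells, which overlap. Libraries did not overlap between cell numbers for Nes in H3K4me3, Vim in CTCF, Synm, Lmna and Lmnb1 in H3K27ac, and Lmna and Lmnb2 in Pol2S2P. The share of all windows without overlap was not counted here either. Nes, with the smallest adjusted p of the genes just named, stood at 127 ± 1.79 CPM at 10000 and 145 ± 3.24 at 1000 cells, with a difference of -0.19 ± 0.10 (edgeR adjusted p = 0.356).

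An interaction term asked if the gap between targets depended on how many cells were used. Of the 7 windows 0 passed for H3K4me3 minus CTCF (0.00523% of 19107) and 0 for H3K27ac minus Pol2S2P (0% of 19415), with 1605 and 924 windows of the genome at an unadjusted p under 0.05 in edgeR; DESeq2 was not run on the interactions. The smallest unadjusted p-values were 0.0259 for Nes in the first (-0.31 ± 0.14, edgeR adjusted p = 0.515) and 0.0246 for Lmna in the second (-0.28 ± 0.13, edgeR adjusted p = 0.999). A p that misses the threshold does not show that values were equal.

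The partners of these proteins were read in 3 lists, of which each gene had a window. Of 18 other intermediate filament genes (keratins, neurofilaments and lens and glial filaments), 6 were higher in H3K4me3 than CTCF at 10000 cells, 8 lower and 4 not called, with a median log2 difference of -0.39 against 0.15 for all windows. The neurofilament gene Nefl (0.86 ± 0.13) and the keratin gene Krt14 (0.81 ± 0.10) were highest, and the keratin genes Krt8 (-1.15 ± 0.14) and Krt7 (-1.05 ± 0.16) lowest. Of 17 lamina and nuclear envelope partners, 14 were higher and 3 lower, with a median of 1.15. Emd, whose product emerin binds lamin A, had 2.14 ± 0.10, Banf1, which links DNA to the lamina, 1.86 ± 0.14, and the nesprin genes Syne1 and Syne2, whose windows hold 551 and 313 bins, -0.90 ± 0.06 and -0.34 ± 0.06. Of 14 linkers and chaperones of filaments, 8 were higher, 2 lower and 4 not called (median 0.26), led by the co-chaperone gene Bag3 (1.61 ± 0.11) and the filamin C gene Flnc (1.50 ± 0.09). Over all windows 46.5% were higher and 32.8% lower at 10000 cells. At 1000 cells the lists gave 4 higher and 8 lower, 13 and 3, and 7 and 1, against 43.2% higher and 27.6% lower of all windows. Calls on the lists are those with library totals, and the lists were not read under TMM or DESeq2.

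For H3K27ac minus Pol2S2P at 1000 cells, the other filament genes gave 8 higher and 4 lower (median 0.23, against -0.28 for all windows), led by Krt19 (1.12 ± 0.17) and Krt80 (1.01 ± 0.08). The lamina partners gave 3 higher and 9 lower (median -0.30), from 0.83 for the nesprin gene Syne3 to -1.13 for the nuclear pore gene Nup153, and the linkers 4 higher and 3 lower (median -0.01). Over all windows 11.5% were higher and 41.1% lower at 1000 cells. At 100 cells the lists gave 8 higher and 1 lower, 2 and 4, and 1 and 1, against 8.69% higher and 29.2% lower of all windows. In Pol2S2P dual minus single staining 12 of 17 lamina partners, 8 of 14 linkers and 3 of 18 other filament genes were lower, and 2, 1 and 4 were higher, with library totals. Over all windows 37.7% were lower, and the number called lower went from 7432 to 3967 with TMM. In CTCF dual minus single staining 1 gene of each list was lower and 0 were higher, against 1.32% of all windows called in either direction. No gene of the 3 lists was called between cell numbers.

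Over the 10 group means, the windows whose levels moved most like each gene were named among the genes with at least 50 counts in every group, as a description of points that share libraries and depth. For Vim they were Actb, the gene of cytoplasmic beta-actin (Pearson r = 0.998, n = 10 groups), and Maml1 (0.996). For Lmna they were Csf1 (0.991) and Msln (0.978), for Nes Atox1 (0.991) and Vegfa (0.987), and for Lmnb2 Pkn3 (0.996) and Recql4 (0.995). Those of Des (F3, 0.957, and Slc29a2, 0.943) and Lmnb1 (Bid, 0.958, and Scx, 0.956) were less close. Synm had Cwh43 (0.976) and Coro2b (0.974), on fewer than 50 counts in at least 1 group.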

How the data were processed

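The authors deposited 1 table of raw counts of reads per 1 kb bin of GRCm38. Per the submitters' processing notes, bcl2fastq, HISAT2 2.1.0 and deepTools 3.3.1 were used; the treatment of duplicates and of reads that map to several places was not stated in the sources used here. Columns were matched to samples by name: 28 matched, 4 columns matched no sample and were not used, and 6 samples labelled primary-Ab ChIL (100 cells) were not analysed here. Of 2728634 bins, 2631639 lay on the autosomes and X, and 9 whose density passed 50 times the mean in each group were left out. No source names molecular identifiers, so counts may include copies of 1 molecule.

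Counts were summed over gene windows or kept per bin and tested with edgeR 4.0.16 in R 4.3.3 (quasi-likelihood test, filterByExpr with a minimum count of 10, library totals with no further scaling, only the libraries of the groups compared), with Benjamini-Hochberg adjustment over all features tested and a threshold of 0.05. The edgeR fits of windows were run on simulated counts, which did not cover bins, interaction terms, TMM or DESeq2. Alternatives were TMM factors, DESeq2 1.42.0, other minimum counts, flanks of 5 and 0 kb, each library left out and the replicate number as a block. Levels were also computed without bins of other coding genes, an alternative added after the data were seen. Gene spans, listed starts and promoter bases are from RefSeq tables of GRCm38.p6, and the start of Lmnb1 was set at the 5′ edge of its span.

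The members and lists were chosen with earlier results of these data known. The rule for other named genes took, from each list in the dual comparisons, the 2 largest called differences in each direction without overlap, the bin with the highest mean of each group, the bin with the largest called difference in each direction, and the 2 genes most like each member. Sentences name some of these. The rule for CTCF bins and the search for AGGGGGC were chosen after the data were seen.

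The column names give both targets of a dual staining the same replicate number, but no label states that this number marks the same cells. Same-numbered H3K27ac and Pol2S2P libraries deviated together from their group means over 19163 genes (r = 0.140, 0.134 and 0.115 at 1000 cells and 0.111, 0.114 and 0.107 at 100 cells). The replicate numbers were therefore treated as a possible pairing.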

Additional observations from a re-analysis of the deposited data

How the results depend on the processing

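Of the values of single gene windows under alternatives, 961 kept their side of the threshold, 21 lost the call and 6 gained it. Only 1 called value reversed: Nes in H3K27ac minus Pol2S2P at 1000 cells, which gave -0.0698 over the gene span alone. Values called in neither fit count among the 961 even where their sign changed. Vim in CTCF dual minus single, for example, ran from -0.20 to 0.22 as libraries were left out. Bins depended more on the scaling. For H3K4me3 minus CTCF at 1000 cells, 19 bins were called as reported, 10 with DESeq2 and 30 with a minimum of 5 counts. For H3K27ac minus Pol2S2P at 1000 cells, 32 were called, and 21 with TMM, 18 with DESeq2 and 16 without flanks; at 100 cells 6 were called, and 11 with a minimum of 5 counts and 3 without flanks, while the windows called fell from 3 to 1 with DESeq2. For Pol2S2P dual minus single, 32 bins became 1 with TMM and 0 with DESeq2. Without flanks fewer bins are tested; the other causes were not tested.

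Leaving out 1 library at a time gave 29 to 48 called bins for H3K4me3 minus CTCF at 10000 cells and 22 to 26 at 1000 cells, 28 to 35 for H3K27ac minus Pol2S2P at 1000 cells and 5 to 11 at 100 cells (11 without H3K27ac replicate 2, 10 without Pol2S2P replicate 1), and 13 to 31 for Pol2S2P dual minus single; for windows it gave 7, 6, 4 to 6, 3 to 4 and 5 in this order, and 0 in CTCF dual minus single and between cell numbers. The filter on counts was rerun in each of these fits, so the set of tested bins could change along with the library left out. Where a group of 2 lost a library, the lone one was assumed to vary like the other group.

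With the replicate number as a block, the counts of calls were the same in every comparison of groups of 3 (for windows 7, 6, 6 and 3 between targets and 0 between cell numbers; for bins 40, 19, 32 and 6), and each window and bin called in one fit was called in the same direction in the other, so the pairing changed no call. Same-numbered H3K4me3 and CTCF libraries had r of 0.0496, 0.0364 and 0.0332 at 10000 cells and 0.0910, 0.0934 and 0.0801 at 1000 cells, each the highest of its library. They too share their numbers in the column names, and no label states that these mark the same cells.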
